A study of Mus musculus with 18 samples.

Results

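The genes described are those of the collagen chains, taken as every gene symbol of the form Col, a number, a and a number. This rule found 41 genes among the 17855 of the 2 expression tables, 39 in the liver table and 29 in the AML12 table. A change was computed for the genes whose mean over the libraries of a table was at least 1 TPM (a gene's length-corrected share of the transcripts of a library, on a scale on which each library has the same total). These were 18 of the 39 in liver and 12 of the 29 in AML12. They were grouped as fibrillar collagens (I, II, III, V, XI, XXIV and XXVII), the basement membrane collagen IV, and all other collagens.

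Livers came from male db/db mice of the strain B6.Cg-dock7m Leprdb/++/J, all homozygous for the Lepr db allele and therefore obese and diabetic. Their age is not in the labels. Recombinant mouse serum albumin (rMSA) was injected into a vein of 3 mice at 1.5 mg per g, 3 times at intervals of 3 weeks in a course of 9 weeks, and 3 mice had saline in its place. AML12 is a mouse hepatocyte line, so all its libraries come from 1 line. After a night without serum, AML12 cells were kept for 24 h with 600 µM rMSA and 10 nM insulin together, with rMSA, with insulin or with vehicle (3 libraries each). The labels do not say whether the AML12 libraries came from separate cultures, and the methods state in general that experiments were repeated without naming cultures for these libraries, so p-values there measure the spread between libraries, which may be technical. TPM keeps no counts, so the depth of the 18 libraries is unknown.

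Collagen chains wind around each other into helical molecules that make up much of the extracellular matrix. Fibrillar collagens form the banded fibrils of scar and stroma, collagen IV forms the sheet-like network of basement membranes, and the other families decorate fibrils, link them or anchor cells. In the liver, stellate cells and portal fibroblasts are the best known source of fibrillar collagens, whereas hepatocytes are a known source of collagen XVIII. New chains are modified and folded in the endoplasmic reticulum, trimmed outside the cell and cross-linked by lysyl oxidases.

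Collagen mRNA was higher in the livers of rMSA-treated mice than in those of saline-treated mice for most of the collagen genes tested. The test was passed by 14 of the 18 that rose in rMSA livers and by 1 that fell, and missed by 3 (limma on log2(TPM + 1), Benjamini-Hochberg adjusted p under 0.05). The 14 include Col5a2 and Col27a1, which reached the limit for testing through their rMSA livers. Over all 11398 genes tested, 21.8% rose and 8.38% fell. The median log2 fold change was 0.97 over the 18 collagen genes and 0.12 over all genes tested. With a log2 fold change of at least 1 as well, 9 collagen genes rose and none fell, against 5.94% of all genes rising and 2.67% falling by that much. Libraries of rMSA and saline livers did not overlap for 15 of the 18 collagen genes, with rMSA higher for 14 (32.7% of all genes tested) and lower for 1 (13.0%). In bulk tissue, more cells of a type and more RNA per cell cannot be told apart.

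**Figure D1:**
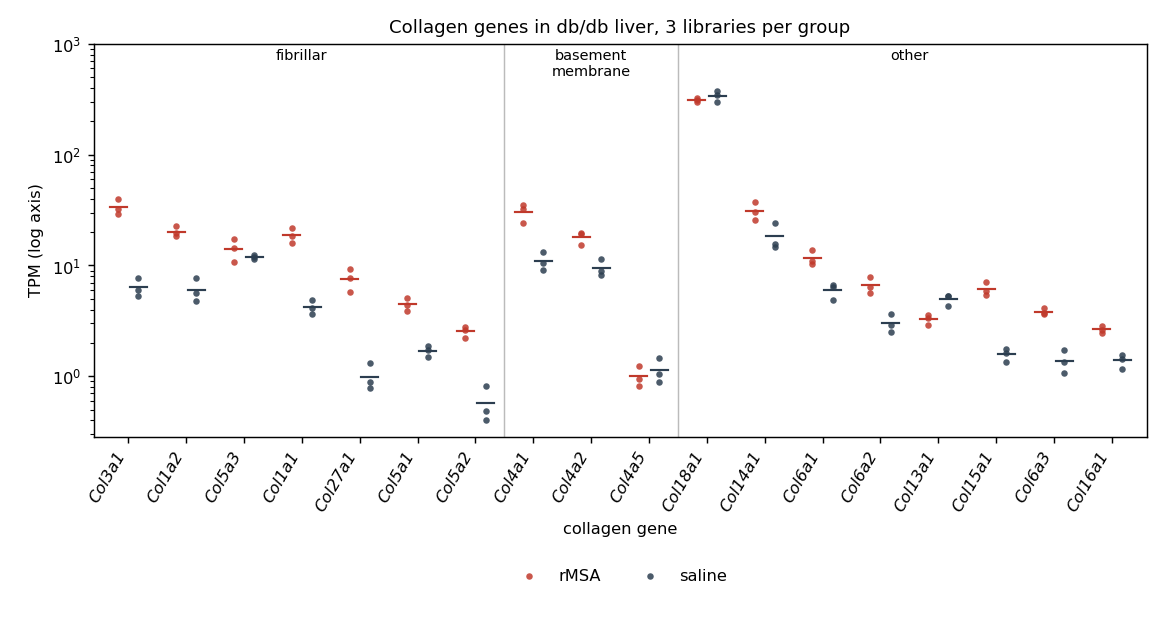
TPM of the 18 collagen genes tested in db/db liver, on a log axis, for rMSA (red, left) and saline (dark, right) livers. Points are libraries, 3 per group, and lines are group means. For 14 genes all rMSA points lie above all saline points, for Col13a1 they lie below, and for Col5a3, Col4a5 and Col18a1 they overlap.

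Among the fibrillar collagens, 6 of 7 rose in rMSA livers, all 6 by a log2 fold change of at least 1, and the median over the 7 was 1.6. Of these 6, Col5a2 and Col27a1 averaged 0.57 and 0.99 TPM in saline livers and reached the limit of 1 TPM through their rMSA livers. Col3a1, the chain of collagen III, had 32.6, 39.6 and 29.3 TPM in rMSA livers, against 7.69, 6.05 and 5.26 TPM in saline livers. Every rMSA library was thus well above every saline library, and Col3a1 stood 121st of 11398 genes when ordered by p. Col1a1, which codes for the alpha1 chain of collagen I, had 18.4, 21.7 and 15.9 TPM in rMSA livers, against 4.90, 3.67 and 4.10 TPM in saline livers. Its partner in the collagen I molecule, Col1a2, had 19.7, 22.5 and 18.3 TPM in rMSA livers, against 7.69, 4.81 and 5.69 TPM in saline livers. Both groups were again apart, and Col1a2 rose by 1.6 on the log2 scale (SE 0.17, limma adjusted p = 0.000338).

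Col27a1, a fibrillar collagen best known from cartilage, was near the lower limit of the test in saline livers. It had 7.69, 5.79 and 9.33 TPM in rMSA livers, against 0.78, 1.32 and 0.88 TPM in saline livers (log2 fold change 2.10, SE 0.20, limma adjusted p = 0.000162). On the log2(TPM + 1) scale this understates the change of a gene so low in 1 group. Collagen V, which is built into collagen I fibrils and limits their width, was represented by all its chains. Col5a2 had 2.64, 2.80 and 2.20 TPM in rMSA livers, against 0.82, 0.49 and 0.40 TPM in saline livers (log2 fold change 1.18, SE 0.17, limma adjusted p = 0.00131). Col5a1 had 3.90, 4.41 and 5.05 TPM in rMSA livers, against 1.88, 1.50 and 1.71 TPM in saline livers (log2 fold change 1.01, SE 0.15, limma adjusted p = 0.00171). For both, the lowest rMSA library was above the highest saline library. The remaining chain, Col5a3, had 17.4, 10.6 and 14.4 TPM in rMSA livers and 11.4, 11.8 and 12.3 TPM in saline livers. Its groups overlapped and it did not pass the test (log2 fold change 0.21, 95% interval -0.18 to 0.61, limma adjusted p = 0.399), although it was the most abundant collagen V chain in every liver. Col11a1 was listed at 0 in all 6 livers, and Col11a2 and Col24a1 stayed below 0.5 TPM.

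In the basement membrane group, Col4a1 and Col4a2, the chains of the common collagen IV molecule, rose and Col4a5 did not pass the test. Col4a1 had 23.9, 32.5 and 34.9 TPM in rMSA livers, against 13.3, 9.10 and 10.6 TPM in saline livers (log2 fold change 1.39, SE 0.18, limma adjusted p = 0.000937). Col4a2 had 15.4, 19.2 and 19.7 TPM in rMSA livers, against 11.5, 8.19 and 8.93 TPM in saline livers (log2 fold change 0.86, SE 0.16, limma adjusted p = 0.00489). The groups did not overlap for either gene. Col4a5, the gene just above the limit of 1 TPM, had 0.81, 0.94 and 1.25 TPM in rMSA livers and 1.47, 1.05 and 0.88 TPM in saline livers, and the groups overlapped (log2 fold change -0.09, 95% interval -0.49 to 0.31, limma adjusted p = 0.746). Col4a3, Col4a4 and Col4a6 were at or below 0.18 TPM in all livers. Within each library, TPM of Col4a1 was 1.56 to 1.77 times that of Col4a2 in rMSA livers and 1.11 to 1.18 times in saline livers, so the ratio of the pair also differed without overlap. Other ratios were apart as well, higher with rMSA for Col1a1 to Col1a2 (0.87 to 0.97 against 0.64 to 0.76) and Col3a1 to Col1a1 (1.77 to 1.84 against 1.28 to 1.65). That of Col6a1 to Col6a2 was lower (1.71 to 1.83 against 1.84 to 2.19), and that of Col5a1 to Col5a2 overlapped. How often the ratios of other gene pairs were apart was not computed.

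Of the 8 other collagens tested in liver, 6 rose, 1 fell and 1 missed the threshold. Col15a1, a basement membrane zone collagen that carries sulphated sugar chains, had 7.14, 5.84 and 5.36 TPM in rMSA livers, against 1.35, 1.63 and 1.75 TPM in saline livers (log2 fold change 1.46, SE 0.16, limma adjusted p = 0.000338). The groups were far apart, and the change was the largest of this class. The chains of collagen VI, which forms beaded filaments around cells, rose together. Col6a1 had 13.8, 10.9 and 10.3 TPM in rMSA livers, against 6.66, 4.84 and 6.34 TPM in saline livers (log2 fold change 0.87, SE 0.17, limma adjusted p = 0.00557). Col6a2 averaged 6.65 ± 1.17 TPM in rMSA livers and 3.01 ± 0.55 TPM in saline livers (SD, n = 3 each). Col6a3 averaged 3.84 ± 0.29 TPM in rMSA livers and 1.38 ± 0.32 TPM in saline livers (SD, n = 3 each). The lowest rMSA library was above the highest saline library for every collagen VI gene tested, while Col6a5 and Col6a6 were at or below 0.20 TPM in all livers.

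Col14a1 and Col16a1 code for collagens that sit on the surface of fibrils. Col14a1, second to Col18a1 in its mean over the 6 livers but below Col3a1 in rMSA livers, had 25.9, 30.6 and 37.6 TPM in rMSA livers, against 24.4, 14.7 and 15.8 TPM in saline livers (log2 fold change 0.76, SE 0.21, limma adjusted p = 0.0253). The groups did not overlap, but the highest saline library came close to the lowest rMSA library. Col16a1 averaged 2.65 ± 0.21 TPM in rMSA livers and 1.39 ± 0.20 TPM in saline livers (SD, n = 3 each), with a limma adjusted p of 0.0151. Neither call stood without each library. The adjusted p of Col14a1 was 0.0617 without rMSA liver 2, 0.0897 without rMSA liver 3 and 0.0888 without saline liver 2, and that of Col16a1 was 0.0533 without rMSA liver 2 and 0.0665 without saline liver 2.

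Col13a1, a collagen that spans the cell membrane, was the only one to fall. Its library values are given because it was singled out after its values were seen. It had 3.37, 2.91 and 3.58 TPM in rMSA livers, against 5.34, 4.33 and 5.31 TPM in saline livers, which did not overlap (log2 fold change -0.48, SE 0.15, limma adjusted p = 0.0399). The call was lost whichever library was left out, with adjusted p of 0.0564 to 0.144 without an rMSA liver and 0.0548 to 0.115 without a saline liver.

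Col18a1, the chain of collagen XVIII, was by far the most abundant collagen gene of these livers, with 312, 300 and 325 TPM in rMSA livers and 297, 348 and 375 TPM in saline livers. The groups overlapped and the gene did not pass the test (log2 fold change -0.12, 95% interval -0.37 to 0.14, limma adjusted p = 0.476). Because it was so abundant, it took 57.0% to 59.7% of all collagen TPM in rMSA livers and 73.0% to 80.9% in saline livers. Summed over all collagen genes, the level was 532 ± 14 TPM in rMSA livers and 434 ± 29 TPM in saline livers (SD, n = 3 each). With Col18a1 left out, it was 220 ± 8 TPM in rMSA livers and 93.6 ± 14.2 TPM in saline livers (SD, n = 3 each). The 10 fibrillar genes summed to 102 ± 7 TPM in rMSA livers and 32.1 ± 3.1 TPM in saline livers. The 6 collagen IV genes summed to 49.7 ± 8.4 TPM in rMSA livers and 21.9 ± 4.2 TPM in saline livers. None of these sums overlapped between the groups. The other collagens with Col18a1 included summed to 381 ± 16 TPM in rMSA livers and 380 ± 34 TPM in saline livers, which overlapped.

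**Figure D2:**
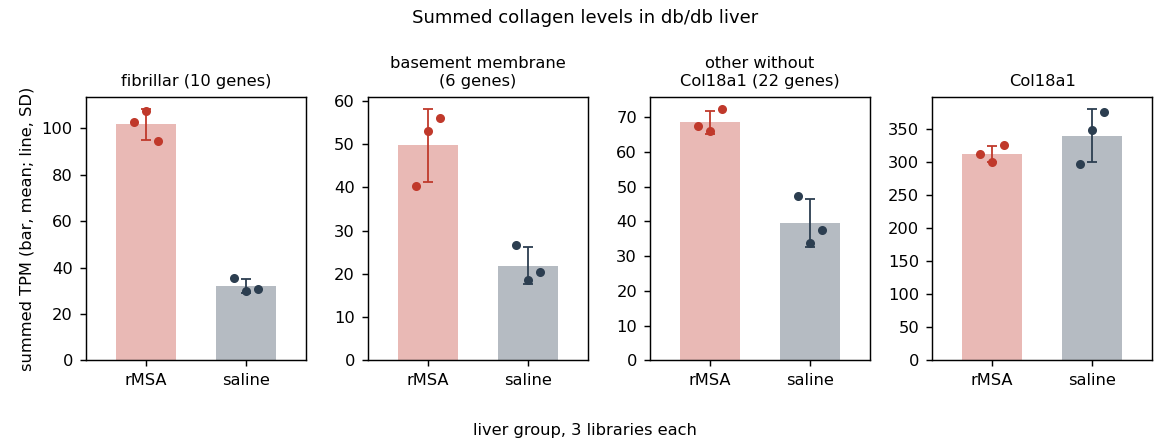
Summed TPM of the fibrillar collagens, of collagen IV and of the other collagens without Col18a1, and TPM of Col18a1 alone, in rMSA (red, left) and saline (dark, right) livers. Bars are means from a zero baseline, lines SD and points the 3 libraries of each group. The first 3 panels show every rMSA library above every saline library, whereas Col18a1 overlaps (300 to 325 TPM in rMSA livers and 297 to 375 TPM in saline livers).

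Below the limit of 1 TPM, 21 collagen genes of the liver table were not tested. The nearest, Col20a1, had 0.70, 0.32 and 0.53 TPM in rMSA livers and 0.82, 1.0 and 0.80 TPM in saline livers. A further pair was picked out after the values were seen. Col12a1, a fibril-associated collagen, had 1.04, 0.99 and 1.22 TPM in rMSA livers, against 0.28, 0.29 and 0.31 TPM in saline livers. Col22a1, a collagen known from tissue junctions such as that of muscle and tendon, went the other way, with 0.06, 0.02 and 0.02 TPM in rMSA livers against 0.77, 1.37 and 0.56 TPM in saline livers. Both sets were apart, and when the limit was dropped Col12a1 rose (log2 fold change 0.69, limma adjusted p = 0.00132) and Col22a1 fell (log2 fold change -0.86, limma adjusted p = 0.00615).

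Promoter sequences are shown for collagen genes that moved in the same or in opposite directions, so that their starts can be set side by side. RefSeq (build GRCm38.p6) gave a promoter for 32 of the 41 genes, and the window read here runs from 250 bases before the annotated start to 30 after it. Col3a1 (chr1:45311288-45311567, plus strand) and Col1a2 (chr6:4505368-4505647, plus strand) rose in rMSA livers, Col15a1 (chr4:47207762-47208041, plus strand) rose both in rMSA livers and in rMSA-treated AML12 cells, Col7a1 (chr9:108953336-108953615, plus strand) rose in rMSA-treated AML12 cells, and Col13a1 (chr10:61979079-61979358, minus strand) fell in rMSA livers. Capitals mark matches, on either strand, to the core of the CCAAT box (spelled CCAAT), to that of the TATA box (spelled TATAAA) or to that of a GC box (spelled GGGCGG).
Col3a1: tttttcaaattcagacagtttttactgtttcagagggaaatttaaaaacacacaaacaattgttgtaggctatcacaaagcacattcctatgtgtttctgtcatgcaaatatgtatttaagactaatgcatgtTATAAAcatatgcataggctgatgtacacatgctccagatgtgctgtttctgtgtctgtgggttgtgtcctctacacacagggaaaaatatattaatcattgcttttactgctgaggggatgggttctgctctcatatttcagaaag
Col1a2: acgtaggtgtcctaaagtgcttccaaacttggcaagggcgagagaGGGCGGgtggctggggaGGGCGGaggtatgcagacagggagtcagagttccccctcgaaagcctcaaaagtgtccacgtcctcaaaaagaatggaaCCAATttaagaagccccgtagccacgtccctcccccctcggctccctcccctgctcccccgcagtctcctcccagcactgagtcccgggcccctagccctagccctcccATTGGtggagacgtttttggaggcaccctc
Col15a1: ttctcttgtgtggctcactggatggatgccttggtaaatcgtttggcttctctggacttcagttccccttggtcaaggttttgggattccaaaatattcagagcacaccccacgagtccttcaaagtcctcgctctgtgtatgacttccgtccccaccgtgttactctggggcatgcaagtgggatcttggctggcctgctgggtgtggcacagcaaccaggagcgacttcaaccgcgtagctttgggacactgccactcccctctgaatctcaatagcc
Col7a1: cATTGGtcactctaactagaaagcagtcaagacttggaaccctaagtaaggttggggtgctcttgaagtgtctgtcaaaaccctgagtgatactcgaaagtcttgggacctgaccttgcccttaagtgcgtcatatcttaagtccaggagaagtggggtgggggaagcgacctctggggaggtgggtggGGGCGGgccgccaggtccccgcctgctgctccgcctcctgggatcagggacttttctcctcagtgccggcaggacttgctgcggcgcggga
Col13a1: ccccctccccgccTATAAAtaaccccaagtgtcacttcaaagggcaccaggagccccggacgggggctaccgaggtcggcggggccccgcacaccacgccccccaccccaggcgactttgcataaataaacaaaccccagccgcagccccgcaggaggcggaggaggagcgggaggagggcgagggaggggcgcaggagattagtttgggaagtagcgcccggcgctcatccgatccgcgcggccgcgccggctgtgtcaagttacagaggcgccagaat

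The Col3a1 window held TATAAA 117 bases before the start and that of Col13a1, a gene that moved the other way, 237 bases before it, and neither held the other motifs. The windows of Col1a2 and Col7a1 both held CCAAT and GGGCGG and no TATAAA. The Col15a1 window held none of the motifs. Over the 32 collagen genes matched, CCAAT stood in the window of 11 (36.1% of all 32851 promoters), TATAAA in that of 5 (13.1%) and GGGCGG in that of 21 (34.7%). Of the 11 matched genes that rose in rMSA livers, 4 had CCAAT, 1 had TATAAA and 7 had GGGCGG. Such matches describe the letters only.

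Several collagen genes lie next to each other in the genome, and the members of such pairs did not always change by the same amount. Col4a1 (minus strand) and Col4a2 (plus strand) start head to head on chromosome 8, and their annotated starts overlap by the 22 bases at chr8:11312805-11312826, shown on the plus strand with GGGCGG in capitals.
Col4a1 and Col4a2: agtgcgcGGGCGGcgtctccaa
Despite this shared start, Col4a1 had the larger log2 fold change in rMSA livers (1.39 against 0.86 for Col4a2). Col3a1 and Col5a2 are neighbours on chromosome 1 that end towards each other (chr1:45311538-45349706 and chr1:45374321-45503282, GENCODE on GRCm38), and rose by 2.25 and 1.18 on the log2 scale. Col6a1 and Col6a2 follow each other on the minus strand of chromosome 10 and rose by 0.87 and 0.93 on the log2 scale.

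Genes that act on collagen were taken from lists, whose counts stand beside the 21.8% of all genes that rose and the 8.38% that fell in rMSA livers. Of 36 genes for the processing and secretion of collagen, 27 were tested in liver, of which 9 rose and 1 fell in rMSA livers (median log2 fold change 0.34, against 0.12 over all genes tested). The collagen chaperone Serpinh1 had 18.2, 22.3 and 18.9 TPM in rMSA livers, against 6.03, 4.83 and 6.34 TPM in saline livers (log2 fold change 1.63, SE 0.15, limma adjusted p = 0.000133). Sparc, a secreted collagen-binding protein, had 85, 114 and 94.3 TPM in rMSA livers, against 49.7, 38.5 and 39.9 TPM in saline livers. Pcolce, which enhances the trimming of procollagen, and Loxl2, a lysyl oxidase, rose by 1.07 and 0.76 on the log2 scale. The groups did not overlap for any of these genes. The one that fell, named after its values were seen, was Bmp1, the protease that trims fibrillar procollagens, with 59.7, 62.9 and 65.6 TPM in rMSA livers against 83.2, 88.9 and 103 TPM in saline livers.

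Of 18 collagen-cleaving proteases and their inhibitors, 11 were tested in liver, and 7 rose (21.8% of all genes) and 1 fell (median log2 fold change 0.63). Pepd, which splits the proline-containing dipeptides left by collagen breakdown, had 63.1, 66.8 and 65.8 TPM in rMSA livers, against 31.5, 32.6 and 36.3 TPM in saline livers. Mmp15, a membrane-type metalloproteinase, rose by 1.39 and Mmp2, a gelatinase, by 0.84 on the log2 scale. Timp1, an inhibitor of metalloproteinases, had 3.96, 7.82 and 4.25 TPM in rMSA livers, against 1.7, 0.85 and 1.23 TPM in saline livers (log2 fold change 1.46, limma adjusted p = 0.00344). Genes for breakdown and for its inhibition thus rose side by side. The lysosomal protease Ctsl, also named after its values were seen, fell.

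Of 10 collagen receptors, 4 were tested in liver and 1 rose, a share near the 21.8% of all genes. It was the receptor kinase Ddr1 (log2 fold change 0.90, limma adjusted p = 0.00635). Of 18 fibril-associated proteoglycans and glycoproteins, 12 were tested and 5 rose, among them Emilin1 (log2 fold change 1.07), Lum, a proteoglycan that spaces fibrils (1.16), Prelp (0.87) and Bgn (0.53). Of 21 partners of collagen IV in basement membranes, 17 were tested and 9 rose, none falling. Nid1, which joins laminin and collagen IV, had 11.1, 19.3 and 22 TPM in rMSA livers, against 7.55, 5.16 and 4.91 TPM in saline livers, while Smoc2, Pxdn (a peroxidase that cross-links collagen IV) and Nid2 rose by 0.85, 0.68 and 0.69 on the log2 scale. Median log2 fold changes of these lists were 0.04, 0.55 and 0.50.

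Some markers of collagen-producing cells rose beside these genes and most did not pass the test. Of 20 markers of stellate cells and fibroblasts, none of them a collagen gene, 19 were tested in liver, 8 rose (21.8% of all genes) and 11 did not pass, among these Dcn, Pdgfra, Colec11 and Reln with log2 fold changes of 0.57, 0.21, 0.44 and 0.50 and Thy1 with -0.50. Acta2, the smooth muscle actin of activated stellate cells, had 10.0, 11.8 and 10.5 TPM in rMSA livers, against 1.58, 1.66 and 2.12 TPM in saline livers, and Pdgfrb rose by 1.10 and Tagln by 1.74 on the log2 scale. Lrat, a marker of resting stellate cells chosen after its values were seen, had 5.93, 5.25 and 9.27 TPM in rMSA livers and 3.36, 2.31 and 1.87 TPM in saline livers. The summed TPM of the list was 615 to 815 in rMSA livers and 484 to 620 in saline livers, which overlap, and none of its members was at 0 throughout a group. Bile duct markers summed to 78.6 to 169 TPM in rMSA livers and 23.6 to 39.3 TPM in saline livers, and 3 of 6 tested rose. Of 7 hepatocyte markers tested, 4 fell (8.38% of all genes) and 2 rose, with a median log2 fold change of -0.93. Cps1, a urea cycle enzyme, fell by 1.53, Hnf4a, a hepatocyte transcription factor, by 1.12 and Fgb, a fibrinogen chain, by 0.93 on the log2 scale, while Ttr rose by 0.70. The summed TPM of the hepatocyte list was 75200 to 81217 in rMSA livers and 61372 to 80298 in saline livers, which overlap. Of 10 macrophage markers, Cd68 rose by 0.69 and Marco fell by 3.04 on the log2 scale. Of 9 other blood cell markers tested, 3 rose, among them the neutrophil genes S100a8 and S100a9 by 1.29 and 1.47, and 1 fell. Of 10 endothelial markers 1 rose, and no adipocyte marker reached the limit. The macrophage and endothelial counts were near or below the 21.8% of all genes that rose and the 8.38% that fell. The blood cell counts, from just 9 genes, were above both shares. The part of these markers in the collagen result was not tested.

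In AML12 cells the collagen repertoire was narrower. Levels were set within each table only, since the tables were made separately. Col1a2 and Col3a1 have no value in the AML12 table used here, and Col1a1 was at or below 0.31 TPM in every AML12 library. The genes Lrat, Pdgfra, Pdgfrb and Tagln, markers of stellate cells, also have no value there, Acta2 was at or below 0.30 TPM, and the 4 markers of the list that passed the limit (Sparc, Timp1, Ecm1 and Angptl6) are not particular to stellate cells. Of the hepatocyte markers, Hnf4a reached 51.0 to 132 TPM and Alb 23.6 to 93.9 TPM, whereas Cps1 and Fgb were at or near 0. Col18a1 was again the most abundant collagen gene, taking 59.5% to 69.2% of collagen TPM in the 12 libraries, followed by Col4a1 and Col4a2.

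**Figure D3:**
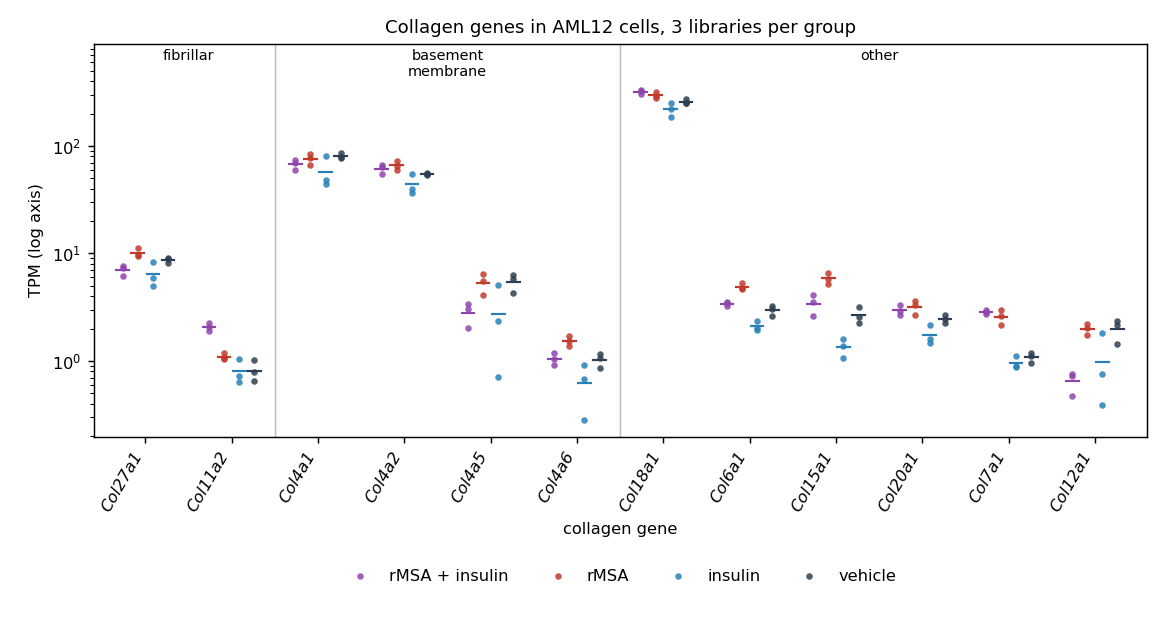
TPM of the 12 collagen genes tested in AML12 cells, on a log axis, for rMSA + insulin (purple), rMSA (red), insulin (blue) and vehicle (dark). Points are libraries, 3 per group, and lines are group means. Col7a1 lies higher in all 6 libraries with rMSA (2.17 to 2.99 TPM) than in all 6 without (0.88 to 1.19 TPM), and the insulin libraries spread most for Col4a5 and Col12a1.

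With rMSA alone, 3 of the 12 collagen genes rose against vehicle and none fell, while 5.90% of the 10826 genes tested rose and 1.89% fell. The median log2 fold change was 0.23 over the 12 and 0.06 over all genes tested, and no collagen gene reached a log2 fold change of 1 (1.52% of all genes rose by that much). All 3 belong to the other collagens. Col7a1, which forms the anchoring fibrils beneath epithelia, had 2.97, 2.17 and 2.62 TPM with rMSA, against 1.11, 0.96 and 1.19 TPM with vehicle (log2 fold change 0.78, SE 0.11, limma adjusted p = 0.00128). Col15a1 had 6.61, 5.23 and 5.74 TPM with rMSA, against 3.19, 2.56 and 2.25 TPM with vehicle (log2 fold change 0.91, SE 0.16, limma adjusted p = 0.00546). Col6a1 had 5.32, 4.72 and 4.70 TPM with rMSA, against 3.22, 2.63 and 3.06 TPM with vehicle (log2 fold change 0.58, SE 0.11, limma adjusted p = 0.00731). The groups were apart for each of them, and all 3 calls stood when any 1 of the 6 libraries compared was left out. Under other scalings, Col7a1 missed the threshold after median centring (adjusted p = 0.0573) and after quantile normalization (0.0544), and Col6a1 after quantile normalization (0.0660).

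The most abundant collagen genes did not pass the test with rMSA alone. Col18a1 had 318, 292 and 281 TPM with rMSA and 253, 248 and 272 TPM with vehicle, which did not overlap but missed the threshold (log2 fold change 0.21, 95% interval -0.02 to 0.43, limma adjusted p = 0.327). Col4a1 had 85, 77 and 66.5 TPM with rMSA and 85.8, 77.7 and 78.8 TPM with vehicle, a log2 fold change of -0.09 (95% interval -0.52 to 0.34). Col4a2 had 72.5, 65.6 and 59.2 TPM with rMSA and 55.3, 54.1 and 55.6 TPM with vehicle, a log2 fold change of 0.25 (95% interval -0.07 to 0.57). Only for Col4a1 did the groups overlap among these. The ratio of Col4a1 to Col4a2 was 1.12 to 1.17 with rMSA and 1.42 to 1.55 with vehicle, the opposite direction from that in liver. With insulin present it overlapped, at 1.06 to 1.16 with rMSA + insulin and 1.10 to 1.45 with insulin.

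**Figure D4:**
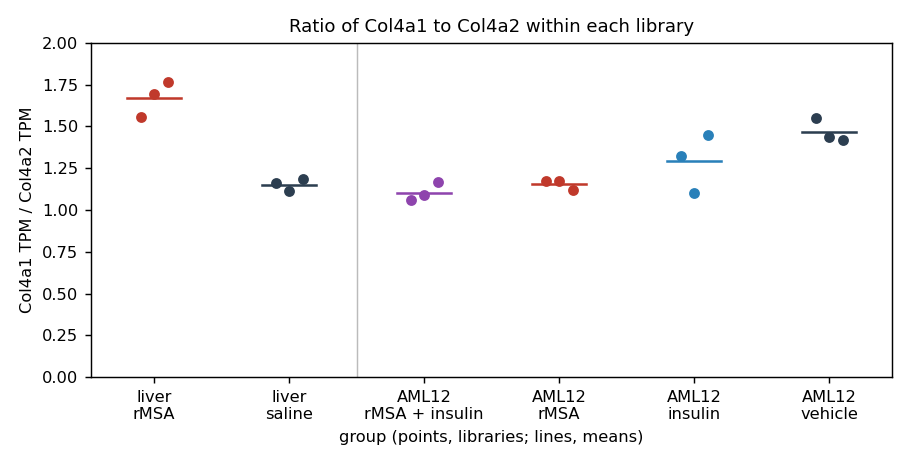
Ratio of Col4a1 TPM to Col4a2 TPM within each library, on an axis from 0, by group. Points are libraries, 3 per group, and lines are means. The ratio is higher in rMSA than in saline livers (1.56 to 1.77 against 1.11 to 1.18) and lower in rMSA-treated than in vehicle-treated AML12 cells (1.12 to 1.17 against 1.42 to 1.55). It overlaps between rMSA + insulin (1.06 to 1.16) and insulin (1.10 to 1.45).

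The other collagen genes of AML12 cells were low. Col27a1 had 11.2, 9.69 and 9.49 TPM with rMSA and 8.89, 8.14 and 9.05 TPM with vehicle, and Col4a5 had 6.42, 5.50 and 4.09 TPM with rMSA and 6.24, 5.75 and 4.28 TPM with vehicle. Col20a1 averaged 3.20 ± 0.50 TPM with rMSA and 2.47 ± 0.22 TPM with vehicle, Col12a1 1.99 ± 0.22 TPM with rMSA and 1.99 ± 0.48 TPM with vehicle, and Col11a2 1.10 ± 0.08 TPM with rMSA and 0.81 ± 0.18 TPM with vehicle (SD, n = 3 each). Col4a6, just above the limit of 1 TPM, averaged 1.54 ± 0.18 TPM with rMSA and 1.02 ± 0.15 TPM with vehicle (SD, n = 3 each). None of these passed the test. Libraries did not overlap for 8 of the 12 genes, each higher with rMSA, which holds for 25.5% of all genes tested. Of the 8, Col4a6 reached the limit of 1 TPM through its rMSA libraries. It averaged 1.05 TPM with rMSA + insulin and 0.62 TPM with insulin. Col11a2 reached the limit through its rMSA + insulin libraries, and its nearest libraries were at 1.04 TPM with rMSA and 1.01 TPM with vehicle.

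Below the limit, Col9a3, the nearest, had 0.88, 0.95 and 0.64 TPM with rMSA and 0.44, 0.27 and 0.41 TPM with vehicle. Col16a1 was picked out after its values were seen. It had 1.31, 0.96 and 1.09 TPM with rMSA, against 0.12, 0.11 and 0.08 TPM with vehicle, and 0.96, 0.78 and 1.08 TPM with rMSA + insulin, against 0.02, 0.07 and 0.19 TPM with insulin. Every library with rMSA was thus far above every library without it, and without the limit Col16a1 rose in both comparisons (limma adjusted p = 7.8e-05 and 0.000113). Col16a1 was also among the genes that rose in rMSA livers. The remaining 15 genes were at or below 0.34 TPM in all AML12 libraries.

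With insulin present, rMSA raised 7 of the 12 collagen genes against insulin alone and lowered none (14.5% and 2.73% of all genes tested). The median log2 fold change was 0.50 over the 12 and 0.21 over all genes tested. Col7a1 had 2.99, 2.75 and 2.88 TPM with rMSA + insulin, against 0.90, 1.11 and 0.88 TPM with insulin (log2 fold change 0.98, SE 0.11, limma adjusted p = 0.000181). Col11a2, a fibrillar chain known from cartilage, had 1.88, 2.07 and 2.26 TPM with rMSA + insulin, against 0.63, 1.04 and 0.72 TPM with insulin (log2 fold change 0.78, SE 0.11, limma adjusted p = 0.00115). Col15a1 had 4.10, 2.61 and 3.53 TPM with rMSA + insulin, against 1.37, 1.06 and 1.6 TPM with insulin (log2 fold change 0.91, SE 0.16, limma adjusted p = 0.00337). For these genes the groups were well apart, but Col11a2 reached the limit of 1 TPM through its rMSA + insulin libraries.

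Col18a1 had 330, 306 and 326 TPM with rMSA + insulin, against 188, 220 and 253 TPM with insulin (log2 fold change 0.55, limma adjusted p = 0.00417). Col6a1 had 3.50, 3.27 and 3.42 TPM with rMSA + insulin, against 2.02, 1.92 and 2.36 TPM with insulin (log2 fold change 0.51, limma adjusted p = 0.00892). Col20a1, a fibril-associated collagen, had 2.94, 2.66 and 3.32 TPM with rMSA + insulin, against 1.61, 1.46 and 2.18 TPM with insulin (log2 fold change 0.54, limma adjusted p = 0.0214). These 3 were apart in every library, whereas Col4a2 overlapped. Col4a2 had 66.0, 54.4 and 63.7 TPM with rMSA + insulin, against 36.7, 39.9 and 55.2 TPM with insulin (log2 fold change 0.49, limma adjusted p = 0.0397). Col4a1 had 69.9, 59.2 and 74.3 TPM with rMSA + insulin and 48.5, 44.1 and 79.9 TPM with insulin, overlapped and did not pass the test (log2 fold change 0.28, 95% interval -0.15 to 0.71).

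Insulin libraries 1 and 2 stood apart from all other AML12 libraries. Genes of ribosomal proteins took 34.9% and 37.6% of their TPM, against 28.0% in insulin library 3 and 23.1% to 29.2% in the other 9, and the median over the tested genes came to 14.6 and 11.2 TPM in them and to 16.2 to 22.6 TPM in the other 10. Without these 2 libraries, 4 collagen genes rose and 1 fell with rMSA + insulin against insulin (13.2% and 17.0% of all genes in that fit). Col12a1 was the one that fell, by 0.77 on the log2 scale (adjusted p = 0.0174). In that fit the insulin group is 1 library, assumed to vary like the other groups. Without insulin library 3, 9 rose (49.0% of all genes), and without insulin library 1, 5 did (9.41%). When the fit held just these 2 groups, 1 collagen gene rose (2.5% of all genes). Col4a2 missed the threshold without insulin library 1 (adjusted p = 0.149), insulin library 2 (0.0722), or rMSA + insulin library 1 (0.146) or 3 (0.135), and Col20a1 without insulin library 1 (0.0735), or rMSA + insulin library 1 (0.0668) or 3 (0.0938).

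**Figure D5:**
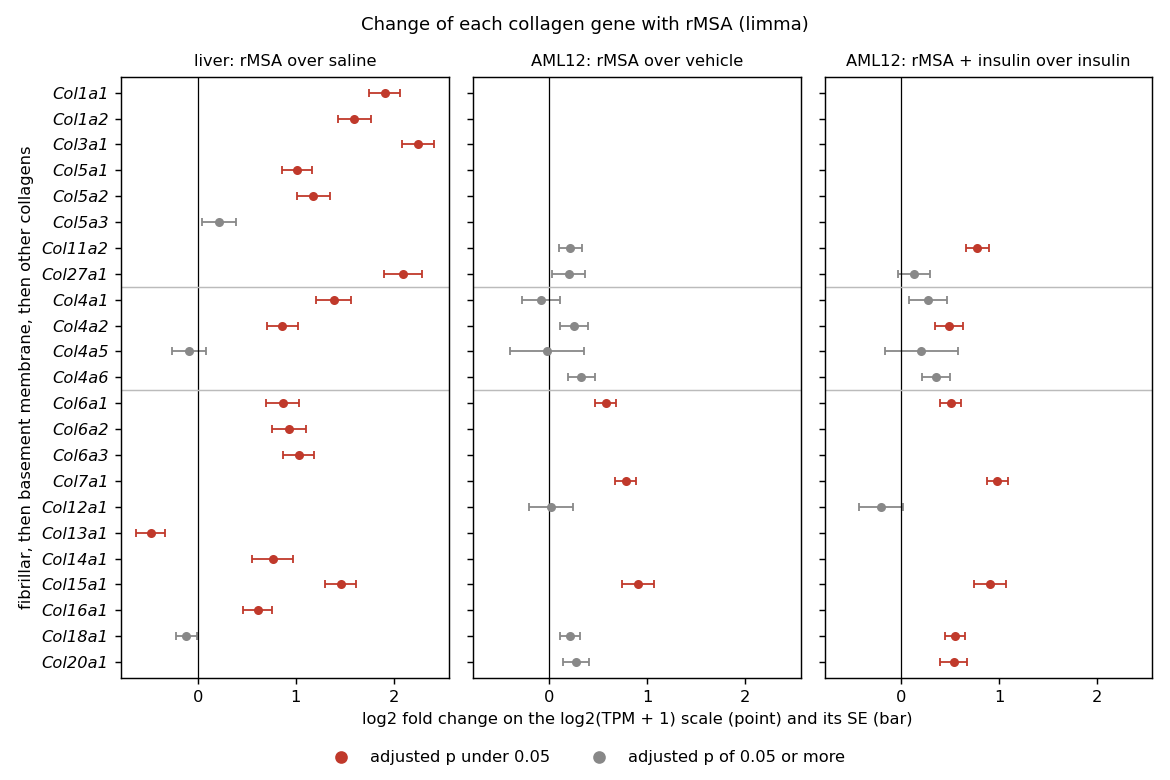
Log2 fold change on the log2(TPM + 1) scale (point) and its SE (bar) of each tested collagen gene, for rMSA over saline in liver, rMSA over vehicle in AML12 and rMSA + insulin over insulin in AML12. Red points passed the test at an adjusted p under 0.05, and a gene without a point was not tested. Changes in liver reach 2.25 (Col3a1), and those in AML12 stay below 1.

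Insulin alone changed no collagen gene past the threshold, and the test called none of the 10826 genes (limma, 0% in either direction). At an unadjusted p under 0.05 it gave 10 of the 12 collagen genes and 36.7% of all genes. All 12 collagen genes had lower means with insulin than with vehicle, with a median log2 fold change of -0.35 and a range of -0.96 (Col4a5) to -0.02 (Col11a2), beside a median of -0.30 over all genes, of which 21.5% had higher means. Under median centring only 5 of the 12 were lower, a scaling that moved the median of all genes by 0.39. Leaving out insulin library 3 gave 10 collagen genes that fell, in a fit in which 61.4% of all genes fell and 7.14% rose. The libraries that remain are those with the high ribosomal share, and their part in this result was not tested. Genes whose longest transcript was at least 5000 nt had a median log2 fold change of -0.57 and those under 2000 nt one of -0.01. Collagen transcripts are long, with Col12a1 at 11.5 kb (log2 fold change -0.64) and Col7a1 at 9.25 kb (-0.09). With the length trend removed, 10 of the 12 collagen genes were still lower. Their median was then -0.15, beside -0.31 over all genes. The part of length in the collagen result was not tested.

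When insulin was added to rMSA, 1 collagen gene passed the test against rMSA alone. Col11a2 had 1.88, 2.07 and 2.26 TPM with rMSA + insulin, against 1.04, 1.19 and 1.06 TPM with rMSA, which did not overlap (log2 fold change 0.55, SE 0.11, limma adjusted p = 0.0290, beside 2.95% of all genes rising). This call was lost without any 1 of the 6 libraries compared (adjusted p 0.0662 to 0.128). Col11a2 averaged 2.07 TPM with rMSA + insulin, 1.10 with rMSA, 0.80 with insulin and 0.81 with vehicle. Its mean of 1.19 TPM over all AML12 libraries thus reached the limit through the group in which it is high. Of the 12 genes, 3 had higher (34.4% of all genes) and 9 lower means with rMSA + insulin than with rMSA, among them Col15a1 (log2 fold change -0.65, adjusted p = 0.0523) and Col12a1 (-0.86, adjusted p = 0.0603), and none fell (1.10% of all genes). Without insulin libraries 1 and 2, which enter here only through the shared estimate of the spread, 1 rose and 6 fell (14.4% and 36.8% of all genes). Under median centring, and with the length trend removed, 6 of the 12 were higher and 6 lower, and in the second of these the median of the 12 was 0.03 in place of -0.24. No collagen gene passed the test of the interaction of rMSA and insulin, which asks whether the effect of rMSA differed in the presence of insulin. Of all genes, 4 (0.0369%) passed it. At an unadjusted p under 0.05 it gave 2 collagen genes (6.45% of all genes), Col11a2 with an interaction of 0.56 (limma adjusted p = 0.492) and Col18a1 with one of 0.34 (limma adjusted p = 0.741). The AML12 comparisons share libraries and are not independent of each other.

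Of the genes that act on collagen, most did not pass the test in AML12 cells. Of the 36 processing and secretion genes 23 were tested, of which 6 rose with rMSA against vehicle (5.90% of all genes) and 7 with rMSA + insulin against insulin (14.5% of all genes), and none fell. Loxl3, a lysyl oxidase, had 2.31, 2.37 and 3.02 TPM with rMSA, against 1.11, 0.92 and 0.85 TPM with vehicle (log2 fold change 0.86, SE 0.11, limma adjusted p = 0.000794). P3h4, a partner of the prolyl and lysyl hydroxylases, Kdelr3, a retrieval receptor of the endoplasmic reticulum, and Bmp1 rose with rMSA by 0.60, 0.50 and 0.40 on the log2 scale. Bmp1 thus fell in rMSA livers and rose in rMSA-treated AML12 cells, each in its own test. Pcolce2, an enhancer of procollagen trimming, and Plod3, a lysyl hydroxylase, were among those that rose with rMSA + insulin, by 0.94 and 0.38 on the log2 scale. The chaperone Serpinh1, added here after its values were seen, with 242, 246 and 220 TPM with rMSA and 243, 229 and 225 TPM with vehicle, overlapped.

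Among the 5 receptors tested in AML12 cells, Itga2, a subunit of the collagen-binding integrins, had 62.2, 54.2 and 40.1 TPM with rMSA, against 12.5, 10.7 and 8.79 TPM with vehicle (log2 fold change 2.18, SE 0.47, limma adjusted p = 0.0149). It also rose with rMSA + insulin against insulin, by 1.93 on the log2 scale. Ddr1 fell with rMSA, with 73.4, 71.1 and 67.9 TPM against 102, 98 and 99.5 TPM with vehicle, whereas it rose in rMSA livers. Of the 8 proteases and inhibitors tested, Ctsl and Timp1 rose with rMSA, and Ctsb, Ctsl, Timp1 and the collagenase Mmp13 rose with rMSA + insulin against insulin. Fn1, fibronectin, was the one of 3 fibril-associated genes tested that rose, with 31.3, 26.4 and 22 TPM with rMSA against 9.15, 7.80 and 7.46 TPM with vehicle. Of 10 basement membrane partners tested, the laminin chain gene Lamb3 and Fbln2 rose with rMSA, by 0.77 and 1.58 on the log2 scale, and both also rose with rMSA + insulin against insulin.

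The collagen genes tested in both liver and AML12 cells were Col15a1, Col6a1, Col4a1, Col4a2, Col4a5, Col18a1 and Col27a1. Set side by side, Col15a1 and Col6a1 passed the test in the same direction in all 3 comparisons of rMSA with its control. The share of all genes that did so was not computed. In AML12 cells the calls of Col6a1 depended on the scaling, being lost after quantile normalization in both comparisons and after median centring with rMSA + insulin, and with only the 2 groups fitted neither gene passed with rMSA + insulin (adjusted p = 0.0690 for Col15a1 and 0.161 for Col6a1). Col15a1 rose by 1.46 in rMSA livers, by 0.91 in AML12 cells with rMSA and by 0.91 with rMSA + insulin, and Col6a1 by 0.87, 0.58 and 0.51 on the log2 scale. Col4a1 and Col27a1 rose in rMSA livers (1.39 and 2.10), and in AML12 cells with rMSA their log2 fold changes of -0.09 and 0.20 did not pass. Col4a2 rose in rMSA livers (0.86) and with rMSA + insulin (0.49), and its 0.25 with rMSA alone did not pass. Col18a1 rose with rMSA + insulin only (0.55), and Col4a5 passed in none of the 3 comparisons. Col7a1, which rose in AML12 cells, was at or below 0.07 TPM in all livers. No test compared the changes between liver and AML12 cells, whose tables, doses and durations differ.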

How the data were processed

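RNA-seq was analysed from 6 livers and 12 AML12 libraries. The authors deposited TPM values, 1 table per experiment, with 2 decimals. Per the submitters' processing notes, Trimmomatic 0.33, STAR 2.5.2b, featureCounts and Subread 1.6.0 were used with GRCm38. For the annotation, the strand setting and the formula of TPM, the sources used here give nothing. Reads from a stretch where genes overlap, as Col4a1 and Col4a2 do over 22 bases, may therefore not be told apart. The count-based test of the study could not be run on TPM.

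Groups and replicate numbers were taken from the labels. In each table, genes averaging at least 1 TPM were fitted on log2(TPM + 1) with limma 3.58.1 in R 4.3.3 (trended empirical Bayes, 1 fit per table, two-sided, Benjamini-Hochberg over all genes tested). A fold change on this scale understates that of low genes. The fit was tested on simulated data. Members and lists were chosen with earlier results of these data known. Library values are given for up to 8 members with the smallest p past the threshold in a comparison, the 3 most abundant of each class, those nearest the limit, and up to 4 genes of each other list with the smallest p, besides genes marked as chosen after their values were seen. Same-numbered rMSA and vehicle AML12 libraries deviated together (r = 0.53, 0.14 and 0.58), as did most of rMSA + insulin and insulin (0.10, 0.79 and 0.80). Those of rMSA and insulin deviated against each other (-0.10, -0.23 and -0.71). The replicate block was the replicate number, taken over all 4 AML12 groups. With it, 3 collagen genes again rose with rMSA against vehicle (5.15% of all genes). Alternatives were another pseudocount, filter, scaling or set of groups, the replicate block, each library left out and, added after seeing the data, a removed length trend.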

Additional observations from a re-analysis of the deposited data

Results flagged for a closer look

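The ratio of Col4a1 to Col4a2 TPM differed in opposite directions in liver and in AML12 cells. It averaged 1.67 in rMSA livers and 1.15 in saline livers, with every rMSA liver above every saline liver. It averaged 1.16 in rMSA-treated AML12 cells and 1.47 in vehicle-treated cells, with every rMSA library below every vehicle library. With insulin present it overlapped (1.06 to 1.16 with rMSA + insulin, 1.10 to 1.45 with insulin). The ratios of Col1a1 to Col1a2, Col3a1 to Col1a1 and Col6a1 to Col6a2 were also apart in liver, and that of Col5a1 to Col5a2 overlapped. Of these pairs, only Col4a1 and Col4a2 were both tested in AML12 cells. How often the ratios of other gene pairs were apart was not computed. The difference between liver and AML12 cells was not tested. With groups of 3 libraries, no check of single outlying samples was run on this ratio.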

How the results depend on the processing

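Depth is unknown for all libraries, so no counting error could be given, and with 3 libraries per group small changes of low genes could be missed. The length trend removal was chosen after seeing the data. The cause of the differences below was not tested, except that a minimum of 5 TPM and no filter change how many genes enter. In liver, 14 rose and 1 fell, and a minimum of 5 TPM left 9 tested, of which 7 rose (24.2% of all genes). For rMSA against vehicle in AML12 (3 rose), all calls were rises, and the share of all genes rising stands in brackets. The count was 0 at 5 TPM (4.88%), 6 with no filter (5.29%) and 5 with only those groups fitted (16.9%). It was 2 after median centring (5.61%) and 1 after quantile normalization (6.69%). For rMSA + insulin against insulin (7 rose), 2 rose at 5 TPM (15.2% of all genes), 11 with no filter (11.2%) and 1 with only those groups fitted (2.5%). After median centring 2 rose (6.53%) and 1 fell (6.84%), and after quantile normalization 3 rose (8.64%) and none fell. For rMSA + insulin against rMSA (1 rose), none was called at 5 TPM, with a pseudocount of 0.1 TPM or without each library in turn. With a pseudocount of 5 TPM 1 rose (3.34% of all genes) and 2 fell (1.55%). Median centring gave 1 rising (5.72%) and 1 falling (7%), and quantile normalization the same counts (9.68% and 8.04%). With only those groups fitted, 1 rose (12%) and 5 fell (30.7%). Insulin against vehicle gave 0 to 10 calls with 1 library left out, the 10 being falls in a fit in which 61.4% of all genes fell.

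Log2 fold changes that crossed 0 were small or not called. With rMSA + insulin against insulin, Col27a1 was -0.13 after median centring and after quantile normalization, -0.24 without insulin libraries 1 and 2, and -0.016 to 0.31 with 1 library left out. Col4a1 was -0.24 without insulin libraries 1 and 2. Col4a5 was -0.051 after median centring, -0.70 without insulin libraries 1 and 2, and -0.26 to 0.66 with 1 library left out, and Col12a1 was -0.43 to 0.073. With rMSA against vehicle, Col12a1 was -0.053 after median centring, -0.14 after quantile normalization and -0.13 to 0.10 with 1 library left out, Col4a1 -0.17 to 0.004 and Col4a5 -0.16 to 0.13. In liver, Col4a5 was 0.0041 with the length trend removed and -0.18 to 0.021 with 1 library left out.

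With the replicate block, 12 collagen genes rose in liver (13.3% of all genes). There Col13a1, Col14a1 and Col16a1 missed the threshold (adjusted p 0.119, 0.0714 and 0.0778). For rMSA + insulin against insulin 6 rose (12.4% of all genes). For rMSA + insulin against rMSA 1 fell, Col15a1 (0.813% of all genes), and Col11a2 missed the threshold. The count was 0 for insulin against vehicle and for the interaction. Same-numbered livers did not deviate together (r = 0.05, -0.41 and -0.39). Median centring moved the median of all genes by -0.14 in liver, -0.26 for rMSA + insulin against insulin, 0.21 for rMSA + insulin against rMSA and 0.39 for insulin against vehicle.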
